A study of Apis mellifera with 24 samples.

Results

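Mlc2 and myophilin are 2 muscle genes of the honey bee, and their transcripts (XM_006558321.1 for Mlc2 and XM_392114.5 for myophilin) were followed through the ovaries of queens in different egg-laying states. Both were picked by name, to set a gene of the contractile apparatus beside an actin-binding gene that mated ovaries keep, and they are 2 of the 21596 transcripts measured. Libraries of rRNA-depleted RNA were made from the ovaries of 12 sister queens of Apis mellifera ligustica raised from the same colony, 3 in each of 4 groups, and 12 small RNA libraries covered the same 4 groups. Recovery queens had been caged for 7 days, which stopped their laying, and were released and sampled on day 8 after they had laid again. Inhibited queens were caged for 7 days and not released. Egg-laying queens had been inseminated by instrument and were laying, and the caged groups were made from queens that had been treated in the same way before caging. Virgin queens had neither been inseminated nor laid. All queens lived in their own small colonies behind an excluder that kept them inside, and the 9 inseminated queens of the first 3 groups are called mated here. Age at dissection is not given group by group in the sources used here. Against virgin queens, insemination, having laid and any difference in age therefore cannot be told apart. Inhibited queens had laid before caging but were not laying when sampled.

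Mlc2 encodes the regulatory light chain of muscle myosin, a subunit of the motor that pulls on actin in the sarcomere, the repeating contractile unit of muscle. Myophilin, also called Chd64, is a small calponin-family protein that binds actin, and in Drosophila Chd64 is also known as a partner in the response to juvenile hormone. An insect ovary is made of egg tubes wrapped in a muscular sheath, and its cells that feed or become eggs also carry much actin and myosin outside sarcomeres. A bulk ovary library therefore mixes muscle with germline and follicle cells, and fewer muscle cells and less RNA per muscle cell cannot be told apart in it.

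In the RefSeq annotation Amel_HAv3.1, Mlc2 lies on chromosome 12 and myophilin on chromosome 1. The authors aligned to the older build Amel_4.5, so no coordinates are given here. Each gene had 1 transcript in the table. In Amel_HAv3.1 no other gene overlapped Mlc2, whereas myophilin was overlapped by 2 genes, a long noncoding RNA gene (107966061) and a protein-coding gene (551584). The library kit keeps strand, but the sources used here do not state whether strand entered the quantification, so reads of these neighbours may be part of the myophilin value. The study designed a primer pair for the myophilin transcript, shown because it is the sequence by which that transcript is recognised.
myophilin forward primer: aggcagccagaacattaggt
myophilin reverse primer: ttacccgcctttctaccgag

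Mlc2 was an abundant transcript in virgin ovaries and a modest one in all mated ovaries. Levels are in FPKM, fragments per kilobase of transcript scaled to the mapped fragments of the library. Mlc2 stood at 11.5, 14.7 and 14.7 FPKM in recovery queens, at 9.22, 9.40 and 13.2 FPKM in inhibited queens, at 19.7, 14.6 and 15.2 FPKM in egg-laying queens, and at 292, 137 and 136 FPKM in virgin queens. Every mated library lay below every virgin library, as did those of 29.5%, 29.8% and 30.5% of all transcripts in recovery, inhibited and egg-laying against virgin queens, and the first virgin queen stood well above the other virgin queens. Group means were 13.6 ± 1.86, 10.6 ± 2.22, 16.5 ± 2.77 and 189 ± 89.9 FPKM in recovery, inhibited, egg-laying and virgin queens (SD, n = 3 each). Among the 17924 transcripts with a mean of at least 0.1 FPKM, Mlc2 ranked 6083 in recovery, 6821 in inhibited, 5502 in egg-laying and 226 in virgin ovaries, counted from the highest. The median transcript averaged 4.92, 5.01, 4.88 and 5.02 FPKM in those groups, in the same order.

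**Figure D1:**
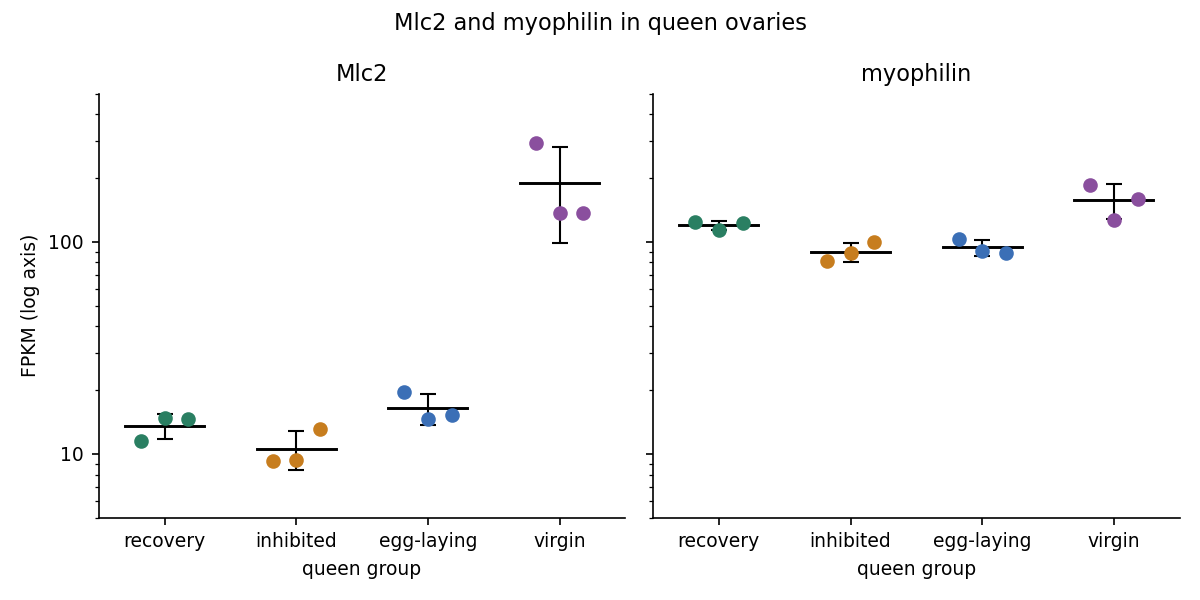
FPKM of Mlc2 (left) and myophilin (right) in recovery, inhibited, egg-laying and virgin ovaries on a shared log axis. Points are libraries, horizontal lines group means and vertical bars 1 SD (n = 3 each). Mlc2 lay between 9.22 and 19.7 FPKM in mated queens and between 136 and 292 FPKM in virgin queens, while myophilin lay between 81.0 and 124 FPKM in mated queens and between 127 and 186 FPKM in virgin queens.

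Mlc2 fell in each mated group relative to virgin queens. The tests were limma fits to log2(FPKM + 1) over all 12 libraries, with p-values adjusted over all 17924 transcripts by Benjamini-Hochberg, and a change counts as called at an adjusted p under 0.05. The scale understates changes of low transcripts, little at the level of Mlc2 and by much below a few FPKM. The change was −3.61 (SE 0.26, adjusted p = 5.94e-07) for recovery against virgin queens, where 25.8% of all transcripts were called lower. For inhibited against virgin queens the change was −3.95 (SE 0.26, adjusted p = 2.465e-07), and 26.3% of all transcripts were called lower. For egg-laying against virgin queens the change was −3.35 (SE 0.26, adjusted p = 8.24e-07), and 27.5% of all transcripts were called lower. The mean thus stood at 7.22%, 5.62% and 8.75% of the virgin mean in recovery, inhibited and egg-laying queens. Calls were common between mated and virgin ovaries, but few were of this size on this scale. A lower change than that of Mlc2 was seen for 0.190%, 0.112% and 0.234% of transcripts in recovery, inhibited and egg-laying against virgin queens. Transcripts low in virgin ovaries could not fall so far on log2(FPKM + 1), and the median transcript there averaged 5.02 FPKM. The shares therefore partly reflect how abundant Mlc2 was in virgin ovaries. These 3 comparisons share the same virgin libraries and do not support each other as separate evidence.

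Myophilin was abundant in every library and moved far less. Its FPKM values were 124, 113 and 122 in recovery queens, 81.0, 88.8 and 99.5 in inhibited queens, 104, 90.9 and 88.3 in egg-laying queens, and 186, 127 and 158 in virgin queens. The lowest virgin library lay just above the highest recovery library, so that mated and virgin queens did not overlap but nearly met. A like lack of overlap was seen for 29.5%, 29.8% and 30.5% of transcripts in recovery, inhibited and egg-laying against virgin queens. The means were 120.0 ± 5.94, 89.8 ± 9.28, 94.2 ± 8.18 and 157 ± 29.5 FPKM in recovery, inhibited, egg-laying and virgin queens (SD, n = 3 each). Of the 17924 transcripts, myophilin ranked 671 in recovery, 950 in inhibited, 931 in egg-laying and 273 in virgin ovaries. In virgin queens its rank was thus close to that of Mlc2, and in mated queens it stayed among the most abundant transcripts.

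Myophilin fell in each mated group relative to virgin queens, and the call held under every alternative run for 2 of the 3 groups, inhibited and egg-laying queens. For inhibited against virgin queens the change was −0.79 (SE 0.13, 95% interval −1.07 to −0.51, limma adjusted p = 0.000292). For recovery against virgin queens it was −0.37 (SE 0.13, 95% interval −0.65 to −0.09, limma adjusted p = 0.0296). The third value, for egg-laying against virgin queens, was −0.72, with a 95% interval of −1.0 to −0.44. The mean stood at 76.4%, 57.1% and 60.0% of the virgin mean in recovery, inhibited and egg-laying queens. Beside all transcripts these changes were ordinary in size: 30.8%, 14.7% and 18.2% of transcripts had a lower change in those comparisons, and 25.8%, 26.3% and 27.5% were called lower. The recovery call rested on which libraries were kept. The adjusted p by limma was 0.0918 without recovery replicate 2, 0.0563 without recovery replicate 3, 0.124 without virgin replicate 1 and 0.0743 without virgin replicate 3. Without virgin replicate 1 the change was also smaller, at −0.24.

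The size of both changes against virgin queens also depended on how the libraries were put on a common scale. The FPKM values of a library summed to between 521059 and 559542 in mated queens and to between 355905 and 405177 in virgin queens. Scaling every library to the same sum shifted the median change of all transcripts to between −0.36 and −0.34 in the 3 comparisons, against −0.05 to −0.04 as deposited, and the calls for egg-laying against virgin queens were then 3073 higher and 7967 lower, against 5024 higher and 4935 lower as deposited. Measured against that median, Mlc2 was at −3.74, −4.08 and −3.48 in recovery, inhibited and egg-laying queens, and myophilin at −0.51, −0.92 and −0.86. After quantile normalization the myophilin changes were −1.0, −1.39 and −1.38. Mlc2 and myophilin were called lower in all 3 comparisons under each of the 4 scalings, and only the myophilin values moved by more than 1.5 times.

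**Figure D2:**
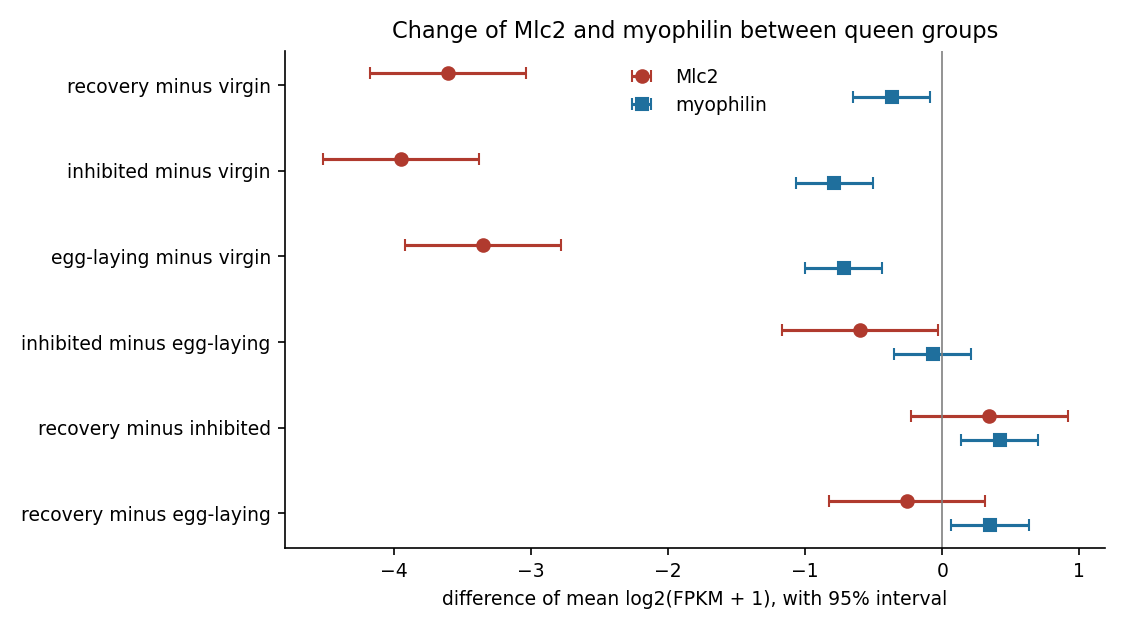
Difference of mean log2(FPKM + 1) between groups for Mlc2 (circles) and myophilin (squares), as the first named group minus the second, with 95% intervals from limma (n = 3 libraries per group). The Mlc2 values against virgin queens lie between −3.95 and −3.35, those of myophilin between −0.79 and −0.37, and among mated groups all values lie between −0.60 and 0.42.

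The contrast between the genes was plainest within each library, where scaling cancels. Mlc2 FPKM was 9.22%, 13.0% and 12% of myophilin FPKM in recovery queens, 11.4%, 10.6% and 13.2% in inhibited queens, 19.0%, 16.1% and 17.2% in egg-laying queens, and 157%, 108% and 85.9% in virgin queens. In virgin ovaries the genes were thus at similar FPKM, with Mlc2 above myophilin in 2 of 3 queens, and in mated ovaries Mlc2 was everywhere a small share of myophilin. Read the other way, myophilin averaged 8.96 ± 1.66, 8.60 ± 0.953, 5.76 ± 0.478 and 0.909 ± 0.265 times Mlc2 in recovery, inhibited, egg-laying and virgin queens (SD, n = 3 each). On the log2(FPKM + 1) scale the ratio of Mlc2 to myophilin averaged −2.83 over the 9 mated queens and 0.18 over the 3 virgin queens, a difference of −3.01 against an SD of 0.27 within groups. No test was made of this ratio, since the pair was proposed with its difference known. Egg-laying queens had the highest ratio of the mated groups, and none of their libraries overlapped those of recovery or inhibited queens. How many other pairs of genes show such a gap was not computed, and neither gene was called among mated groups.

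**Figure D3:**
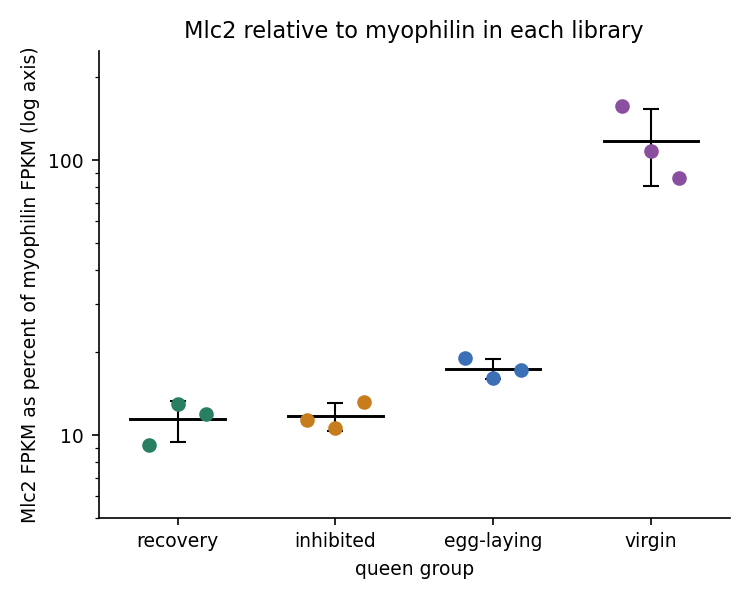
Mlc2 FPKM as a percentage of myophilin FPKM in each library (points) of recovery, inhibited, egg-laying and virgin queens, on a log axis, with group means (lines) and 1 SD (bars, n = 3 each). Mated libraries lie between 9.22% and 19.0% and virgin libraries between 85.9% and 157%.

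Among mated queens neither gene passed the test in any comparison, though some groups stood apart. For inhibited against egg-laying queens, where 0.139% of all transcripts were called, the Mlc2 change was −0.60 (95% interval −1.17 to −0.03, limma adjusted p = 0.639), with no overlap between the groups. A like lack of overlap in the lower direction was seen for 7.12% of transcripts in that comparison. Myophilin there was at −0.07 (95% interval −0.35 to 0.21, limma adjusted p = 0.940), and the groups overlapped.

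After release, the recovery queens had the highest myophilin of the mated groups. Each recovery library lay above every inhibited and every egg-laying library. The change was 0.42 (95% interval 0.14 to 0.70, limma adjusted p = 0.170) for recovery against inhibited queens, where 0.658% of transcripts were called and 11.7% were higher without overlap. It was 0.35 (95% interval 0.07 to 0.63, limma adjusted p = 0.329) for recovery against egg-laying queens, where 0.0502% of transcripts were called and 8.44% were higher without overlap. Before adjustment the limma p-values were 0.00727 and 0.0198, so both were under 0.05 before the correction for the number of transcripts tested and not after it. Mlc2 was at 0.34 (95% interval −0.23 to 0.91, limma adjusted p = 0.602) for recovery against inhibited queens. It was at −0.26 (95% interval −0.83 to 0.31, limma adjusted p = 0.748) for recovery against egg-laying queens. Its libraries overlapped in both of these comparisons, and the intervals leave room for a change of either sign. With 3 against 3 libraries an exact permutation test cannot go below p = 0.1, so none is given for single genes.

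In order of mean level, Mlc2 ran virgin, egg-laying, recovery, inhibited from highest to lowest, and myophilin ran virgin, recovery, egg-laying, inhibited. The step between virgin queens and the next group was called for Mlc2 under each alternative run and for myophilin under part of them. None of the other neighbouring groups differed past the adjusted threshold. Over the 9 mated queens the log2(FPKM + 1) values of the genes had a Pearson r of 0.35 (permutation p = 0.354) and a Spearman rank correlation of 0.27 (permutation p = 0.492). Without the 2 queens farthest from the median Mlc2, both inhibited, r was −0.34 (permutation p = 0.482), so no relation held. Each group has only 3 queens, too few for a value within groups, and mated and virgin queens fall apart, so no r over all 12 is given.

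The other sarcomere genes place Mlc2 among its neighbours in the muscle. Troponin C, I and T are the calcium-sensing, inhibitory and tropomyosin-binding subunits of the switch that lets myosin reach actin. Of a list of 28 sarcomere genes, 8 could be matched by symbol or by an identifier the study names: Mlc2 and 7 troponin genes, each read by its most abundant transcript. All 8 were called in each mated group against virgin queens, 7 lower and 1 higher. Of all transcripts, 25.8%, 26.3% and 27.5% were called lower and 27.3%, 27.5% and 28.0% higher in recovery, inhibited and egg-laying queens. The median change of the list was −2.85, −3.15 and −3.01 in the same order, beside −0.04, −0.04 and −0.05 over all transcripts. In inhibited queens the eighth call did not hold under 13 of 21 alternatives, where 7 genes were called. Troponin I (TpnI, XM_006568672.1) stood at 3.23, 4.73 and 5.83 FPKM in recovery, 4.08, 3.18 and 4.21 FPKM in inhibited, 5.78, 4.24 and 5.16 FPKM in egg-laying and 121, 71.7 and 85.2 FPKM in virgin queens. Its changes against virgin queens were −4.06, −4.25 and −3.92 (SE 0.22 each, limma adjusted p of 6.70e-08, 3.88e-08 and 6.59e-08) in recovery, inhibited and egg-laying queens. As for Mlc2, no mated library came near a virgin library, and the first virgin queen was the highest.

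The list member that rose was troponin C type IIa (TpnCIIa, NM_001011653.1), the most abundant gene of the list over the 12 libraries. It stood at 55.4, 75.8 and 73.2 FPKM in recovery, 88.7, 66.2 and 62.2 FPKM in inhibited, 60.6, 53.6 and 77.3 FPKM in egg-laying and 47.5, 34.8 and 25.3 FPKM in virgin queens. Mated queens lay above virgin queens without overlap, as they did for 30.1%, 30.1% and 30.0% of all transcripts in recovery, inhibited and egg-laying against virgin queens. The rise was 0.94, 1.02 and 0.84 (SE 0.22 each) in recovery, inhibited and egg-laying queens, with limma adjusted p of 0.00375, 0.00221 and 0.00679, where 27.3%, 27.5% and 28.0% of all transcripts were called higher. With libraries scaled to the same FPKM sum it was 0.47, 0.55 and 0.36, and in recovery and egg-laying queens no longer called, with adjusted p-values up to 0.184 over the 4 scalings. The other 6 troponin genes summed to 16.7 to 22.0 FPKM in recovery, 15.8 to 20.9 FPKM in inhibited, 18.4 to 21.6 FPKM in egg-laying and 196 to 367 FPKM in virgin libraries. Troponin C type IIb (TpnCIIb) was the weakest of them, listed at 0 in 3 of the 9 mated libraries, and its fall in inhibited queens (limma adjusted p = 0.0402) is the call that was lost under 13 of 21 alternatives, with adjusted p-values up to 0.116. The understatement by the log scale is large for such low genes. Troponin C type IIIa (TpnCIIIa) averaged 1.14 FPKM in egg-laying and 14.2 FPKM in virgin queens, a log2 ratio of the means of −3.64, while its change in log2(FPKM + 1) was −2.76.

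Only TpnCI, TpnI and TpnT had more than 1 transcript that passed the filter, so other transcripts could be read for these genes alone. The chosen transcript has the highest mean over the 12 libraries, which high virgin values raise, so this is no independent check. In recovery queens XM_006566249.1 of TpnCI averaged 5.95 FPKM, above the chosen TpnCI transcript at 3.80 FPKM. In egg-laying against virgin queens 3 of 4, 4 of 4 and 3 of 4 of their transcripts were called lower, the chosen ones included. Over all troponin genes 13 of 16 transcripts were called lower and 1 higher, beside 27.5% lower and 28.0% higher of all transcripts. Among the 13, XM_006568684.1 of TpnI and XM_006557485.1 of TpnT passed the filter only through virgin libraries. Their fall was thus favoured in advance and adds no support. That TpnI transcript averaged 0, 0.0420, 0.0401 and 0.496 FPKM in recovery, inhibited, egg-laying and virgin queens. The 2 that were not called belong to TpnCI and TpnT and were low in every group. That of TpnT was higher in mated queens, averaging 1.31, 1.27, 0.312 and 0.00368 FPKM in recovery, inhibited, egg-laying and virgin queens. None of the 8 sarcomere genes was called by limma in any comparison among mated groups. At an unadjusted p under 0.05 there were 2 of 8 in inhibited against egg-laying queens (Mlc2 and TpnCI), 0 in recovery against inhibited queens and 1 in recovery against egg-laying queens (TpnCI).

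**Figure D4:**
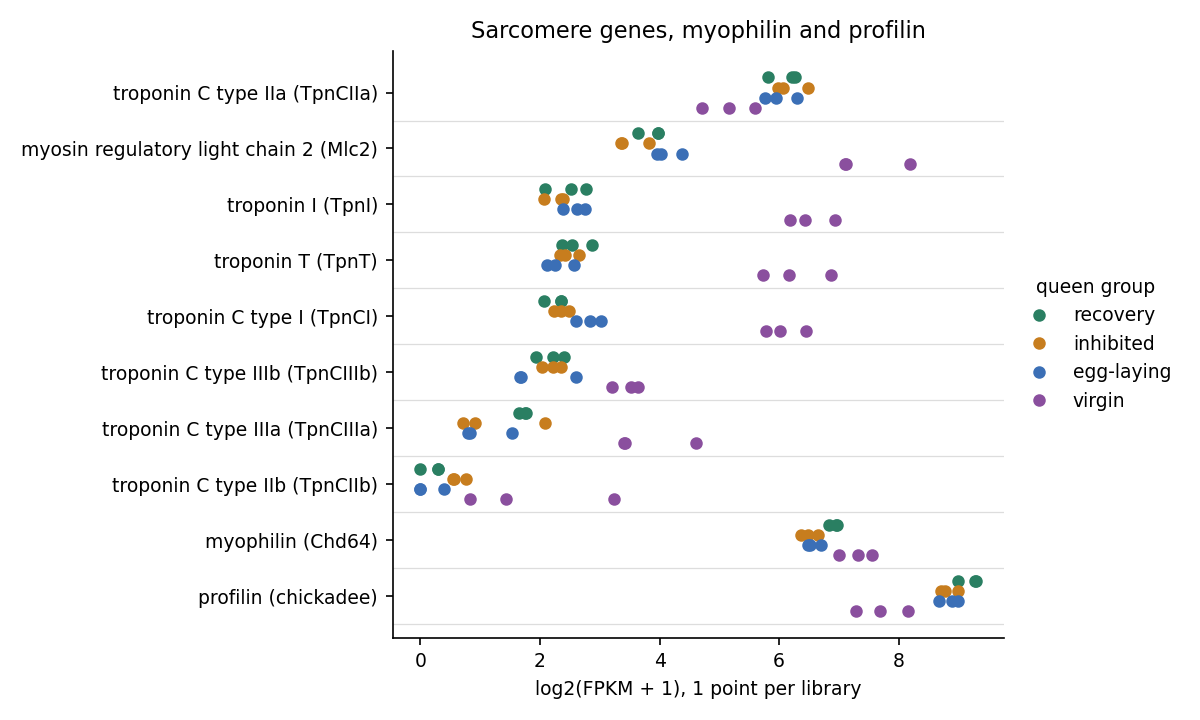
log2(FPKM + 1) of the 8 sarcomere genes found, of myophilin and of profilin, with 1 point per library and rows within each gene for recovery, inhibited, egg-laying and virgin queens from top to bottom. Virgin libraries lie to the right of mated libraries for 7 sarcomere genes and for myophilin, and to their left for TpnCIIa and profilin.

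Myophilin, the calponin-family gene found of 4 listed, shared its direction with the sarcomere list but not its size. Of 15 genes listed for actin and myosin control outside muscle, 1 was matched, profilin, which feeds actin monomers to growing filaments, and it went the other way. Profilin (NM_001011626.2) stood at 510, 624 and 618 FPKM in recovery, 509, 417 and 435 FPKM in inhibited, 476, 409 and 508 FPKM in egg-laying and 284, 206 and 156 FPKM in virgin queens. No mated library was as low as a virgin library, as held for 30.1%, 30.1% and 30.0% of all transcripts in recovery, inhibited and egg-laying queens. Its rise was 1.47, 1.11 and 1.14 (SE 0.19 each) in recovery, inhibited and egg-laying queens, with limma adjusted p of 4.61e-05, 0.000376 and 0.000288. Profilin was called higher under each of the 4 scalings. As deposited, 27.3%, 27.5% and 28.0% of all transcripts were called higher in these comparisons.

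Transcripts with the pattern most like each gene were sought over the 12 libraries among 13329 transcripts of other genes with a mean of at least 1 FPKM. Likeness is the root mean square difference of log2(FPKM + 1) after each transcript is centred on its own mean, so smaller is closer. For Mlc2 the 5 nearest were at 0.144 to 0.305, beside a median of 1.68 over all compared, and 2 of them were troponin genes, TpnI at 0.278 and TpnCI (XM_006566248.1) at 0.305. The nearest, XM_006560083.1 of gene 408414, averaged 6.29, 5.05, 8.17 and 105 FPKM in recovery, inhibited, egg-laying and virgin queens. The next, XM_393544.5 of gene 410058, averaged 10.9, 7.66, 10.7 and 153 FPKM in the same order of groups. Both repeat the drop of Mlc2 with its lowest mean in inhibited queens. The fourth in order, XM_006560557.1 of gene 550671, averaged 8.25, 4.73, 7.68 and 97.7 FPKM.

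For myophilin the 5 nearest were at 0.110 to 0.126, beside a median of 0.514 over all compared. The nearest, XM_006560950.1, averaged 14.1, 11.5, 13.0 and 20.8 FPKM in recovery, inhibited, egg-laying and virgin queens. The next, XM_394576.4, averaged 9.47, 7.19, 7.31 and 12.5 FPKM in the same order. The others were XM_006562390.1, XM_006560227.1 and XM_006564534.1, the last at 75.2, 63.3, 63.3 and 96.3 FPKM, a level near that of myophilin. Within 0.15 lay 13 transcripts for myophilin and 1 for Mlc2. Likeness is not scaled by the size of a change, so transcripts that change little lie close together. These counts therefore do not compare how shared the profiles are. The genes themselves were 1.34 apart. None of the 8 sarcomere genes matched, of 28 listed, was among the 5 nearest to myophilin. XM_006560950.1 and XM_394576.4 had no gene identifier, so an unmatched sarcomere gene among the 5 cannot be told.

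Hormone response genes were listed beside myophilin because of the role of Chd64 in Drosophila. Of 15 juvenile hormone and ecdysone genes 8 could be matched, each read by its most abundant transcript. Of these, 4, 5 and 4 were called higher in recovery, inhibited and egg-laying queens against virgin queens, beside 27.3%, 27.5% and 28.0% of all transcripts. In each comparison 1 was called lower, beside 25.8%, 26.3% and 27.5% of all transcripts. With libraries scaled to the same FPKM sum 2, 3 and 2 were called higher and 1 lower in each. Of all 17924 transcripts, 2925, 3038 and 3073 were then called higher and 7810, 7742 and 7967 lower. The median change of the list was 0.48, 0.58 and 0.38, beside −0.04, −0.04 and −0.05 over all transcripts. Krueppel homolog 1 (Kr-h1), a transcription factor induced by juvenile hormone, was the most abundant and averaged 93.1, 94.7, 88.7 and 64.0 FPKM in recovery, inhibited, egg-laying and virgin queens. Its change was 0.55, 0.57 and 0.48 (limma adjusted p of 0.00221, 0.00174 and 0.00500), but with libraries scaled to the same FPKM sum it was 0.07, 0.10 and −0.01 and not called. The ecdysone receptor (EcR) was at 2.58, 2.58 and 2.57 and E74, a transcription factor induced by ecdysone, at 1.68, 1.44 and 1.27 in recovery, inhibited and egg-laying queens. Both were called higher under each of the 4 scalings. EcR had 3 transcripts and E74 had 10, and those values are of 1 transcript each. The gene called lower was juvenile hormone acid O-methyltransferase, an enzyme of juvenile hormone synthesis, which had a mean of 0.467 FPKM over the 12 libraries. No gene of the list was called by limma among mated groups, and 0, 1 and 0 had an unadjusted p under 0.05 in inhibited against egg-laying, recovery against inhibited and recovery against egg-laying queens.

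Markers of other cells in the sample also differed between mated and virgin libraries. Germline markers showed that all libraries held ovary: vasa, nanos and aubergine, the 3 of 12 listed that could be matched, summed to 416 to 474 FPKM in recovery, 404 to 474 FPKM in inhibited, 394 to 473 FPKM in egg-laying and 174 to 283 FPKM in virgin libraries. Vasa, an RNA helicase of germ cells, made up most of these sums in mated libraries, and was called higher in each mated group against virgin queens, at 1.32, 1.16 and 1.42 (SE 0.21 each, limma adjusted p of 0.000223, 0.000560 and 0.000114) in recovery, inhibited and egg-laying queens. Of the 3 germline genes, 2, 2 and 1 were called higher in those comparisons, and with libraries scaled to the same FPKM sum 1 in each, vasa. Nanos, a translational repressor of germ cells, was at 0.31 (limma adjusted p = 0.165) in egg-laying queens, and aubergine, a Piwi-family protein, was not called in any comparison (0.45, −0.50 and −0.10). The 7 fat body genes listed, which include vitellogenin, were all found and summed to 74.1 to 110 FPKM in recovery, 128 to 181 FPKM in inhibited, 86.3 to 99.9 FPKM in egg-laying and 143 to 498 FPKM in virgin libraries. Fat body sums overlapped between inhibited and virgin queens. Of these 7 genes, 3 were called lower in recovery, 3 in inhibited and 5 in egg-laying queens against virgin queens, and 1 was called higher in each, beside 25.8%, 26.3% and 27.5% lower and 27.3%, 27.5% and 28.0% higher of all transcripts. With libraries scaled to the same FPKM sum 6, 5 and 6 were called lower. Under that scaling 7810, 7742 and 7967 of all 17924 transcripts were called lower and 2925, 3038 and 3073 higher, so calls shifted downward across the whole table. Vitellogenin, the yolk protein precursor, was at −4.32, −1.95 and −4.11 in recovery, inhibited and egg-laying queens, transferrin at −1.51, −1.04 and −1.11, and hexamerin 70b, a storage protein and the gene called higher, at 1.17, 1.44 and 1.03. The only hemocyte marker found, prophenoloxidase, ranged over 1.03 to 7.74 FPKM in mated and 1.75 to 2.56 FPKM in virgin libraries. No gene of these 3 marker lists was at 0 in all libraries of a group, and the part of these tissues in the Mlc2 and myophilin results was not tested.

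The small RNA libraries gave a second reading of muscle through miR-1 and miR-133, microRNAs known from many animals for their expression in muscle. The counts assigned to miRNAs summed to 128749 to 430457 in mated and 1510420 to 2473711 in virgin libraries, so virgin values rest on more counts. These sums are not the read depth of the libraries. Values are in CPM, the counts scaled to a common total of miRNA counts and corrected for composition by TMM in edgeR. In CPM miR-1 stood at 1391, 1627 and 2295 in recovery, 1541, 1965 and 2064 in inhibited, 1516, 1778 and 2477 in egg-laying and 23304, 30378 and 23464 in virgin queens. Every mated library was far below every virgin library, and 35.8%, 38.7% and 39.6% of the 106 miRNAs tested were lower without overlap in recovery, inhibited and egg-laying against virgin queens. The log2 change was −3.86, −3.79 and −3.74 (SE 0.25 each, edgeR adjusted p of 8.10e-08, 9.07e-08 and 7.53e-08) in recovery, inhibited and egg-laying queens against virgin queens. Of all miRNAs tested, 34.0%, 32.1% and 37.7% were called lower in these comparisons.

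miR-133 was far scarcer, with 11 to 28 counts in each mated library and 551, 135 and 527 counts in virgin libraries. In the same CPM it stood at 53.0, 38 and 49.3 in recovery, 71.0, 68.6 and 102 in inhibited, 94.2, 96.5 and 65.2 in egg-laying and 301, 108 and 262 in virgin queens. The second virgin queen was low and lay only just above the highest mated library, and in the deposited TPM, which have no composition scaling, it lay below 1 inhibited and 2 egg-laying libraries. The log2 change was −2.25 (SE 0.38), −1.46 (SE 0.37) and −1.44 (SE 0.37) in recovery, inhibited and egg-laying queens, with edgeR adjusted p of 0.000203, 0.00377 and 0.00385. With scaling by the total of miRNA counts alone the egg-laying value was −0.86 (edgeR adjusted p = 0.0468). That scaling moved the median change of all miRNAs to 0.29, 0.29 and 0.41 in recovery, inhibited and egg-laying queens, against −0.06, −0.07 and −0.15.

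Among mated groups neither miRNA was called. The miR-1 changes were −0.05 (SE 0.23, edgeR adjusted p = 0.961) for inhibited against egg-laying, −0.07 (SE 0.23, edgeR adjusted p = 0.984) for recovery against inhibited and −0.12 (SE 0.23, edgeR adjusted p = 0.900) for recovery against egg-laying queens. For miR-133 they were −0.03 (SE 0.42, edgeR adjusted p = 0.989), −0.79 (SE 0.43, edgeR adjusted p = 0.509) and −0.81 (SE 0.43, edgeR adjusted p = 0.656) in those comparisons. Every recovery library was lower in miR-133 than every inhibited and egg-laying library, at 11 to 28 counts each. A like lack of overlap in the lower direction was seen for 10.4% of the 106 miRNAs in recovery against inhibited and for 8.49% in recovery against egg-laying queens. For inhibited against egg-laying, recovery against inhibited and recovery against egg-laying queens edgeR called 0, 1 and 0 of 106 miRNAs (0.0%, 0.943% and 0.0%), DESeq2 called 1, 2 and 0, and 13, 6 and 8 had an unadjusted p under 0.05 by edgeR. The miRNA and mRNA libraries were compared by group only.

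**Figure D5:**
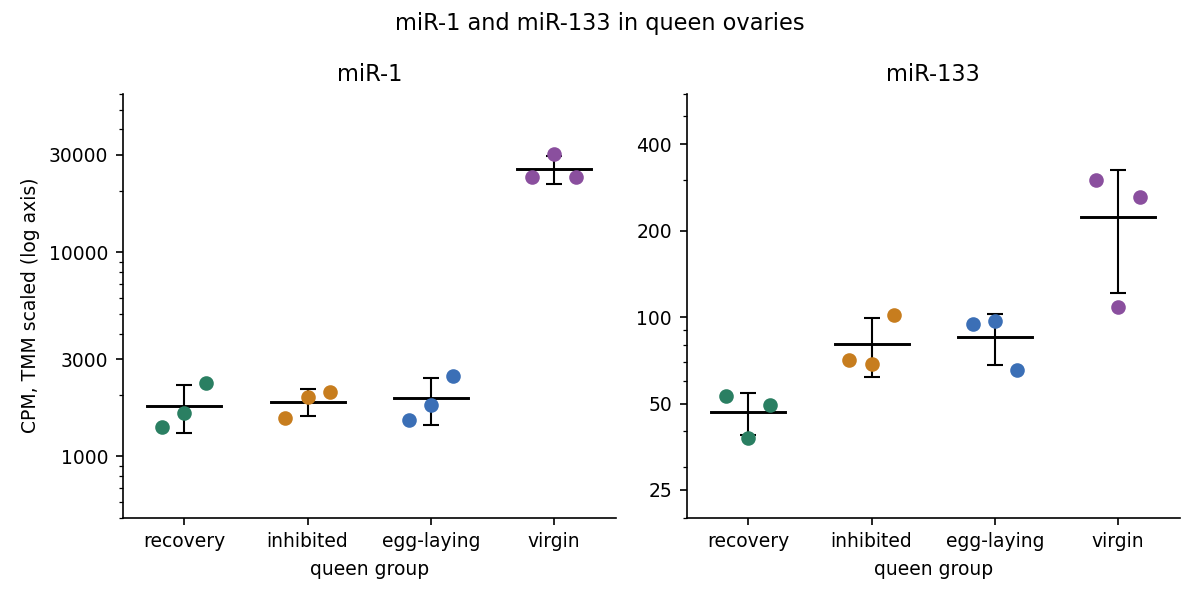
CPM after TMM scaling of miR-1 (left) and miR-133 (right) in recovery, inhibited, egg-laying and virgin ovaries, each panel on its own log axis, with libraries as points, group means as lines and 1 SD as bars (n = 3 each). miR-1 lies between 1391 and 2477 in mated and between 23304 and 30378 in virgin libraries, and miR-133 between 38 and 102 in mated and between 108 and 301 in virgin libraries.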

How the data were processed

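Ovaries of 12 queens gave 12 mRNA and 12 small RNA libraries. The authors aligned strand-specific 150-base paired-end reads of rRNA-depleted RNA to Amel_4.5 with TopHat2 2.0.9 on Bowtie2 2.0.6 and deposited Cufflinks FPKM per transcript. For miRNAs they mapped 50-base reads with Bowtie and deposited read counts and TPM, each count scaled to an equal total of miRNA counts. HTSeq 0.6.1 is named in the submitters' processing notes without a role here. Read depth of the mRNA libraries is unknown from FPKM, and no library pair held identical values.

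Groups came from the labels. Transcripts with a mean of at least 0.1 FPKM were tested with limma 3.58.1 (R 4.3.3, trend) on log2(FPKM + 1) in 1 fit over 12 libraries. miRNAs reaching 10 counts in 3 or more libraries were tested with edgeR 4.0.16 (quasi-likelihood, TMM), after 6 blank rows were dropped. DESeq2 1.42.0 was an alternative for miRNAs. Both tests were two-sided, adjusted by Benjamini-Hochberg, with 0.05 as threshold, and were tested on simulated data. Alternatives were the pseudocount, the filter, other scalings, fits of 2 groups, the replicate number as a block, leaving out each library, and FPKM summed per gene, which was chosen after seeing the data.

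The 2 genes and all gene lists were chosen with earlier results of these data known. The named genes are the members, the 3 genes of highest mean FPKM in each gene list, the 5 transcripts nearest in pattern to each member, and miR-1 and miR-133. TpnCI, TpnT, TpnCIIb, TpnCIIIa and juvenile hormone acid O-methyltransferase were named after their values were seen. Genes were matched through the RefSeq table (Amel_HAv3.1) and identifiers the study names, which paired 12543 of 21596 transcripts with a gene. Every listed gene was read by its most abundant transcript. A listed gene is not reported here. No deposited fold changes or p-values were used, and 0 sample columns were left out. The p-values of the limma and edgeR tests set a difference between groups against the spread between queens within groups.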

Additional observations from a re-analysis of the deposited data

How the results depend on the processing

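Mlc2 kept its direction and its side of the threshold in all 6 comparisons under each of 20 alternatives, and so did myophilin in inhibited and egg-laying against virgin queens. Myophilin in recovery against virgin queens was no longer called when those 2 groups were fitted alone (−0.37, limma adjusted p = 0.0697), and ranged over −0.51 to −0.24 with a library left out. Small changes among mated groups turned sign with a library left out: myophilin in inhibited against egg-laying queens over −0.15 to 2.29e-05, miR-1 over −0.20 to 0.13 in that comparison, −0.30 to 0.0791 in recovery against inhibited and −0.35 to 0.0797 in recovery against egg-laying queens, and miR-133 in inhibited against egg-laying queens over −0.28 to 0.0790; the cause was not tested. Replicate numbers did not pair the libraries: same-numbered libraries deviated together with r of −0.10 to 0.15, and 2 of 12 were nearest to their own number in every other group. With the replicate block the log2 change of miR-133 in inhibited against egg-laying queens was 0.00694, a turn of sign with no call in either fit, and no call on the 2 genes or 2 miRNAs changed side. The call of TpnCIIb in inhibited against virgin queens, the least secure of the sarcomere list, was lost under 13 of 21 alternatives: pseudocount 0.1, no filter, quantile normalization, the 2 groups alone, the replicate block, and without recovery replicate 2 or 3, any inhibited library, egg-laying replicate 1 or 3, or virgin replicate 1. Counts of all transcripts called among mated groups were unstable: over the alternatives they were 9 to 35 in inhibited against egg-laying, 19 to 230 in recovery against inhibited and 2 to 30 in recovery against egg-laying queens, against 25, 118 and 9. Read depth is unknown for the mRNA libraries, and miR-133 rests on 11 to 28 counts in each mated library.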
